A study of Mus musculus with 20 samples.

Results

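Glycolysis and the response to low oxygen were followed through 34 genes in tumours that held transferred CD8 T cells. The genes were chosen by name: 4 transporters of glucose and lactate, 16 glycolytic enzymes, 4 regulators of flux, the oxygen-sensing factor Hif1a and 9 hypoxia-induced genes. They are 34 of the 27916 genes measured, and all 34 were found in each of the 4 single-cell libraries. Each gene was read in 3 cell classes, which were melanoma cells, macrophages and CD8 T cells, as the UMIs (molecules counted by a molecular identifier) summed over the cells of a class in a library. Levels are given in CPM, the gene's UMIs per 1000000 UMIs of that class in that library. CPM is not corrected for gene length, so levels were compared between samples and classes and not between genes. A mean level of at least 20 CPM over the 4 libraries was reached by 27 members in melanoma cells, 26 in macrophages and 23 in CD8 T cells.

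Glycolysis splits glucose to pyruvate in the cytosol. Transporters of the Slc2a family let glucose in, hexokinases trap it, and phosphofructokinase sets much of the pace. Lactate dehydrogenase turns pyruvate to lactate, which leaves through transporters of the Slc16a family. HIF-1α, the protein of Hif1a, is destroyed while prolyl hydroxylases of the Egln family have oxygen. When oxygen falls it accumulates, binds DNA at a core of A or G followed by CGTG, and switches on glycolytic genes together with Vegfa, Bnip3 and others. Since this control acts on the protein, the Hif1a transcript need not follow its targets. Activated T cells and many tumours also use glycolysis where oxygen is plentiful.

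The 4 groups held 1 library each. They were knockout (KO) with anti-PD-L1, an antibody that blocks the ligand of the PD-1 checkpoint receptor, wild-type (WT) with anti-PD-L1, KO untreated and WT untreated. In all 4, the transferred cells were OT-I CD8 T cells, which recognise ovalbumin, the hosts carried B16-OVA melanoma, a mouse tumour line that makes ovalbumin, and the infiltrate was taken 8 days after transfer. The KO cells came from Tet2-/- mice crossed with OT-1 mice, so they lacked the DNA demethylase TET2 in the germline and not only in mature T cells. The macrophages and melanoma cells carry no label of their own genotype, and no source used here gives the hosts' strain, age or number. Where KO and WT are compared in macrophages or melanoma cells, the genotype named is that of the transferred T cells. Other samples of the series, from earlier days, were not analysed here.

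After filtering, 1276, 1602, 2216 and 2295 cells remained in KO anti-PD-L1, WT anti-PD-L1, KO untreated and WT untreated, with a median of 4714 to 7479 UMIs a cell. Melanoma cells numbered 50, 69, 189 and 927, macrophages 181, 176, 403 and 205, and CD8 T cells 1025, 1319, 1551 and 1124. The libraries are labelled as infiltrating CD8 cells, yet 3.92% to 40.4% of cells were melanoma cells and 8.93% to 18.2% were macrophages. In every library each class had UMIs of all its own markers: 9 of 9 in melanoma cells, 10 of 10 in macrophages and 8 of 8 in CD8 T cells. WT untreated stood apart. Clusters 3, 8 and 13 held 271, 389 and 427 of its 1124 CD8 T cells, against at most 91, 39 and 48 in any other library, and 16 of its CD8 T cells lay outside cycling clusters, against 673 to 1002. Every comparison with WT untreated rests on that library. The targeted gene Tet2 had 17.9 and 15.8 CPM in CD8 T cells of KO and WT anti-PD-L1, and 23.0 and 13.4 CPM in those of KO and WT untreated. The deleted part of Tet2 is not given, and tags from the 3′ end need not fall in it, so this level is no check of genotype. Any 2 libraries had 1 to 10 cell barcodes in common.

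The promoters of 4 members are shown because their levels carry the results below and their motif content differs. Bnip3, a mitophagy receptor, and Ankrd37, an ankyrin-repeat protein, are hypoxia-induced genes. Ldha makes the muscle-type subunit of lactate dehydrogenase, and Tpi1 is triose phosphate isomerase. Each run is the 250 bases before an annotated start of the gene, the first that the table lists, 5′ to 3′ on the gene's strand, from RefSeq on GRCm38, the assembly of mm10. The starts of Ldha and Ankrd37 lie inside the annotated span of the gene. Capitals mark ACGTG and GCGTG, the 2 forms of the HIF core, on either strand (CACGT and CACGC are their reverse complements).
Bnip3: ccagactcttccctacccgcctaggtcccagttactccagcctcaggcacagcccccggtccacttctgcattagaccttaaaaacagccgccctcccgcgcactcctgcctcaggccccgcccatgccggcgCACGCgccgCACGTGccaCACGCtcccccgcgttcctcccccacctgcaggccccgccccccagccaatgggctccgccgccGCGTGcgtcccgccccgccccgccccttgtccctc
Ankrd37: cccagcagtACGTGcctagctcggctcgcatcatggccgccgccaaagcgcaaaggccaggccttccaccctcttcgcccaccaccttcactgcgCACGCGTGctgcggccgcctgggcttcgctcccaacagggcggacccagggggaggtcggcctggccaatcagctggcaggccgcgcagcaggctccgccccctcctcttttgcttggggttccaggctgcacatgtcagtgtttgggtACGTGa
Ldha: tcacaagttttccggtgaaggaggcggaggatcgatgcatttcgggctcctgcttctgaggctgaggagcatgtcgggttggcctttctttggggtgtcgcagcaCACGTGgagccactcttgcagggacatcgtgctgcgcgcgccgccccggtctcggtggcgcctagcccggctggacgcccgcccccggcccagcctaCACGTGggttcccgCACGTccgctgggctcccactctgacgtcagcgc
Tpi1: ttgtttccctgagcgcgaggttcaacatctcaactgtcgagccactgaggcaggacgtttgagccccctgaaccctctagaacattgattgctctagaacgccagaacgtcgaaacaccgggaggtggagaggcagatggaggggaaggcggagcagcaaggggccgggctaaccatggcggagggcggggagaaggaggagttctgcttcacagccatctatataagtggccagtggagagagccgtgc
The Bnip3 window (chr7:138909507-138909756, minus strand) held 2 matches to ACGTG and 3 to GCGTG, and the Ankrd37 window (chr8:45999851-46000100, minus strand) held 2 of each. In the Ldha window (chr7:46845554-46845803, plus strand) there were 5 matches to ACGTG and 0 to GCGTG, and the other window listed for Ldha held 0 and 1. A match and its reverse complement overlap in CACGTG, where both are counted. No copy of either motif lay in the Tpi1 window (chr6:124814159-124814408, minus strand).

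Of the 32 members with a promoter in the table, 20 held ACGTG on either strand (62.5%), against 18.5% of 27025 genes and 26.5% of the 5389 genes that reached 20 CPM in a class. By role these were 8 of 8 hypoxia-induced genes, 3 of 3 transporters, 7 of 16 glycolytic enzymes and 1 of 4 regulators. GCGTG was in 21 of 32 members (65.6%), against 30.9% of all genes and 51.6% of those that reached 20 CPM. Base composition differed as well, taken as the G and C content of each gene's window richest in them. The median over genes was 65.2% in members, 52.8% in all genes and 61.2% in genes that reached 20 CPM. A gene was counted if any of its windows held the motif: 21 members had 1 window and 11 had up to 4. In the first window alone 16 members held ACGTG, without Aldoa, Pkm, Vegfa and Mxi1, and by window it was in 24 of 48, against 16.6% of 32851. These are counts of letters, not binding sites.

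The 3 classes were first compared with each other, since each library gave a profile of each class and the 4 libraries are the replicates of this comparison. Melanoma cells had more RNA of most glycolytic enzymes than CD8 T cells, and the hypoxia-induced genes were divided among the classes. By edgeR's quasi-likelihood test with the library as a block, 18 members were higher and 12 lower in melanoma cells than in CD8 T cells at a Benjamini-Hochberg adjusted p under 0.05, where 73.1% of all genes tested passed (37.7% higher and 35.4% lower). Macrophages differed from CD8 T cells in 14 members higher and 6 lower, against 62% of all genes (30.7% and 31.3%), and melanoma cells from macrophages in 16 higher and 11 lower, against 66% (33.8% and 32.2%). The members' totals are to be read against these shares, so direction and size by role are what the following values add. Errors of means are SD over 4 libraries. Where values are said not to overlap, here or below, how many of all genes do not overlap was not counted.

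**Figure D1:**
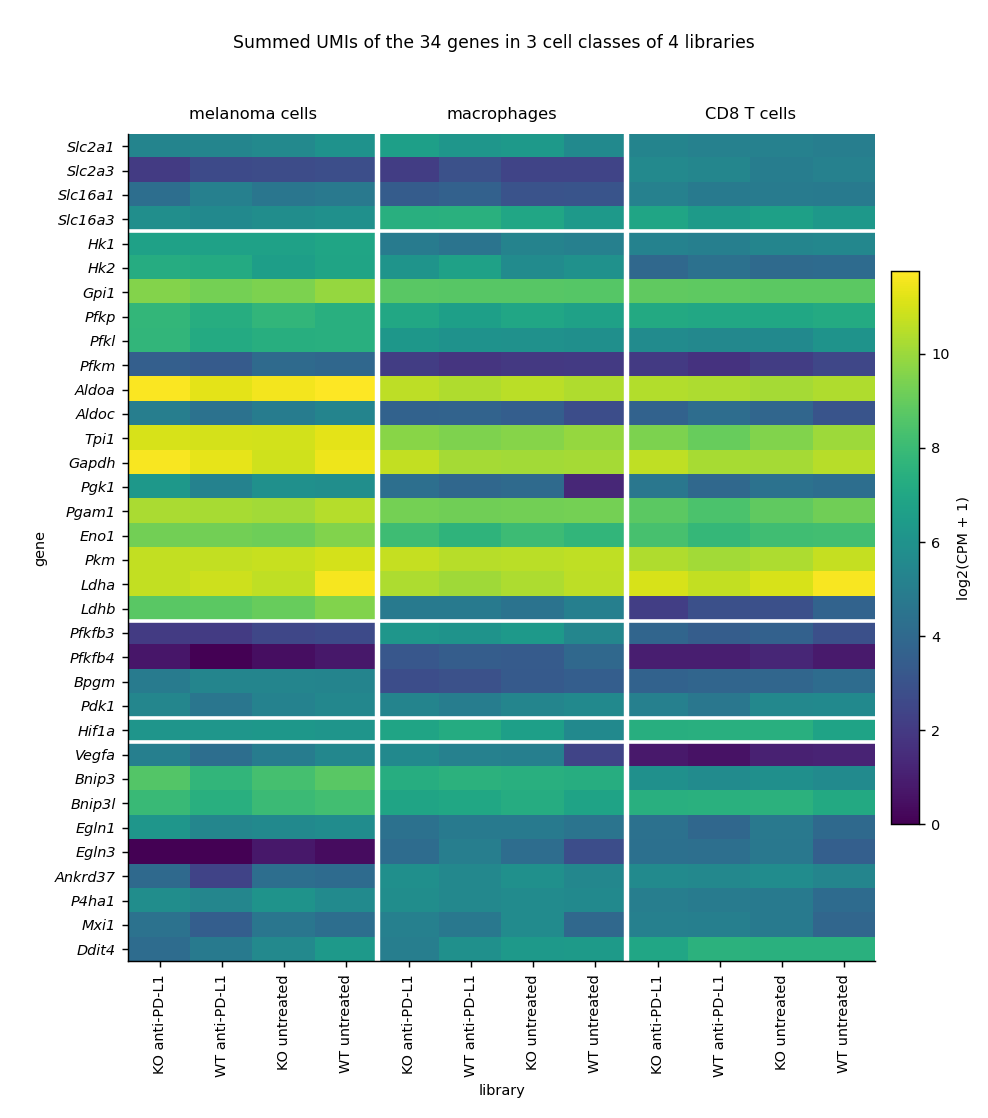
Heat map of log2(CPM + 1) for the 34 genes (rows, by role) in the 12 profiles of 3 cell classes and 4 libraries (columns). Slc2a3 is brighter in CD8 T cells than in melanoma cells, Egln3 is near 0 in melanoma cells, Ldhb is bright in melanoma cells, and Vegfa is dark in CD8 T cells.

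Transporters divided by class. Slc2a3, the high-affinity glucose transporter GLUT3, had 3.16, 5.21, 5.74 and 6.18 CPM in melanoma cells of KO anti-PD-L1, WT anti-PD-L1, KO untreated and WT untreated, and 3.46, 6.61, 4.25 and 4.39 CPM in macrophages, against 45.1, 40.8, 30.4 and 34.8 CPM in CD8 T cells. All 4 CD8 values lay above all 8 others, with log2 differences of -3.11 ± 0.20 (SE, adjusted p = 6.6e-10) for melanoma cells and -2.88 ± 0.26 (adjusted p = 6.63e-08) for macrophages. Slc2a1, the widespread glucose transporter GLUT1, had 96.8, 71.9, 77.5 and 46.9 CPM in macrophages, against 38.4, 35.2, 35.2 and 31.9 CPM in CD8 T cells (1.24 ± 0.20, adjusted p = 5.08e-05). In melanoma cells it had 46.3 ± 10.6 CPM and did not pass against CD8 T cells. Slc16a3, the lactate exporter MCT4, averaged 53.4 ± 4.54 CPM in melanoma cells, 137 ± 46.0 CPM in macrophages and 95.4 ± 20.1 CPM in CD8 T cells, and passed in all 3 comparisons. Slc16a1, the lactate transporter MCT1, was lowest in macrophages, at 8.95 ± 2.13 CPM, against 29.3 ± 4.12 CPM in CD8 T cells.

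Among the 16 glycolytic enzymes, 13 were higher and 1 was lower in melanoma cells than in CD8 T cells, with a median log2 difference of 0.99 against 0.02 over all genes. Ldhb, the heart-type subunit of lactate dehydrogenase, differed most, with 425, 448, 519 and 735 CPM in melanoma cells against 3.49, 6.21, 6.39 and 12.6 CPM in CD8 T cells (5.89 ± 0.18, adjusted p = 1.43e-13). Macrophages lay between, at 21.3 to 32.2 CPM. Hexokinase 2, the inducible enzyme that traps glucose, had 126 ± 27.1 CPM in melanoma cells and 70.8 ± 23.3 CPM in macrophages, against 16.7 ± 2.40 CPM in CD8 T cells, written Hk2 in the files. Hexokinase 1 (Hk1) had 109 ± 6.65 CPM in melanoma cells, 30.5 ± 6.50 CPM in macrophages and 38.0 ± 4.35 CPM in CD8 T cells. The 3 phosphofructokinase subunits were unlike each other. Pfkl, the liver-type subunit, averaged 172 ± 28 CPM in melanoma cells against 51.0 ± 9.22 CPM in CD8 T cells (1.37 ± 0.13, adjusted p = 5.36e-08), while the platelet-type Pfkp did not pass in any of the 3 comparisons and the muscle-type Pfkm stayed under 16 CPM in every profile.

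Most later enzymes of the pathway were also higher in melanoma cells than in CD8 T cells, while the place of macrophages varied. Tpi1 had 2085, 2063, 1951 and 2440 CPM in melanoma cells against 701, 525, 729 and 1057 CPM in CD8 T cells, with no overlap (1.15 ± 0.11, adjusted p = 8.34e-08). Aldoa, the main aldolase, averaged 3043 ± 408 CPM in melanoma cells and 1279 ± 79.8 CPM in CD8 T cells, and Gapdh 2613 ± 544 CPM and 1336 ± 207 CPM. Phosphoglycerate mutase (Pgam1) had 1229 ± 120 CPM in melanoma cells, 614 ± 16.3 CPM in macrophages and 460 ± 103 CPM in CD8 T cells. Enolase 1 (Eno1) had 629 ± 74.8, 237 ± 35.9 and 281 ± 40.0 CPM in the same order of classes. Ldha did not share this direction. Macrophages had 1257, 1080, 1249 and 1556 CPM of it, each under the 2099, 1642, 2084 and 3144 CPM of CD8 T cells in the same library (-0.63 ± 0.12, adjusted p = 0.000336). In melanoma cells Ldha had 1642, 1838, 1577 and 3086 CPM, and those values overlap the CD8 values (-0.53 ± 0.12, adjusted p = 0.000999). Pkm, the pyruvate kinase of most tissues, did not pass between melanoma cells and CD8 T cells. Related genes looked up for Eno1, Aldoa, Pgk1 and Gapdh were Eno1b, Aldoart1, Aldoart2, Pgk1-rs7 and Gapdhs, none of which exceeded 12.7 CPM. Other copies of these genes were not looked up. Whether reads of Pgk1, with class means of 12.4 to 56.5 CPM, were lost to copies was not tested.

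Of the regulators, Pfkfb3, which makes the activator of phosphofructokinase, marked macrophages, with 71.5, 65.3, 78.5 and 41.0 CPM against 13.3, 9.98, 11.5 and 6.39 CPM in CD8 T cells (2.78 ± 0.20, adjusted p = 4.4e-09). Melanoma cells had 3.13 to 5.20 CPM of it. Pfkfb4, its paralog, had 10.5 ± 2.86 CPM in macrophages and at most 1.38 CPM in any other profile. Pdk1 encodes a kinase that holds pyruvate back from the TCA cycle. It averaged 35.4 ± 8.45 CPM in melanoma cells, 38.9 ± 6.68 CPM in macrophages and 37.3 ± 10.0 CPM in CD8 T cells. Its values overlap, and it passed as lower in melanoma cells than in macrophages (-0.68 ± 0.15, adjusted p = 0.000875). It did not pass with library totals alone (-0.15) or in cells with no UMI of the other classes' markers (-0.25). Bpgm, which diverts an intermediate to bisphosphoglycerate, was highest in melanoma cells, at 36.6 ± 5.49 CPM against 7.90 ± 2.08 CPM in macrophages.

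Hif1a itself was lowest in melanoma cells, with 68.3, 70.9, 74.7 and 68.7 CPM, against 165, 171, 169 and 113 CPM in CD8 T cells (-1.45 ± 0.18, adjusted p = 1.78e-06). In macrophages it spread from 46.9 CPM in WT untreated to 151 CPM in WT anti-PD-L1. The 9 hypoxia-induced genes split, with 4 higher and 4 lower in melanoma cells than in CD8 T cells. Vegfa, the angiogenic growth factor, had 32.9, 18.2, 29.7 and 43.0 CPM in melanoma cells and 46.1, 34.7, 32.6 and 4.39 CPM in macrophages, against 0.487 to 1.24 CPM in CD8 T cells (4.78 ± 0.44 and 5.32 ± 0.47, adjusted p = 5.31e-08 and 4.63e-08). Every melanoma and macrophage value exceeded every CD8 value. Bnip3 had 390, 213, 309 and 434 CPM in melanoma cells and 160, 187, 168 and 160 CPM in macrophages, against 57.8, 49.8, 57.2 and 47.8 CPM in CD8 T cells, again without overlap.

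Egln3, Ankrd37 and Ddit4 ran the other way in melanoma cells. Egln3, an oxygen-sensing prolyl hydroxylase, had 0, 0, 2 and 3 UMIs in melanoma cells of the 4 libraries (at most 0.676 CPM), against 16.7, 31.4, 17.5 and 5.86 CPM in macrophages and 19.1, 18.7, 25.2 and 10.9 CPM in CD8 T cells. Its sister Egln1 was highest in melanoma cells, at 52.7 ± 12.8 CPM against 19 ± 5.48 CPM in CD8 T cells (1.09 ± 0.18, adjusted p = 3.97e-05). Ankrd37 had 15.2, 4.17, 17.9 and 16.1 CPM in melanoma cells, against 48.3, 44.4, 51.7 and 39.6 CPM in CD8 T cells (-2.08 ± 0.22, adjusted p = 2.11e-07). Ddit4, an inhibitor of the growth kinase mTORC1, averaged 42.9 ± 28.4 CPM in melanoma cells and 62.9 ± 23.3 CPM in macrophages, against 164 ± 29.1 CPM in CD8 T cells. P4ha1, a collagen prolyl hydroxylase, averaged 51.9 ± 9.27 CPM in melanoma cells and 48.2 ± 3.90 CPM in macrophages, against 25.9 ± 6.53 CPM in CD8 T cells. Genes known to answer hypoxia thus differed in direction from member to member in the same cells.

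**Figure D2:**
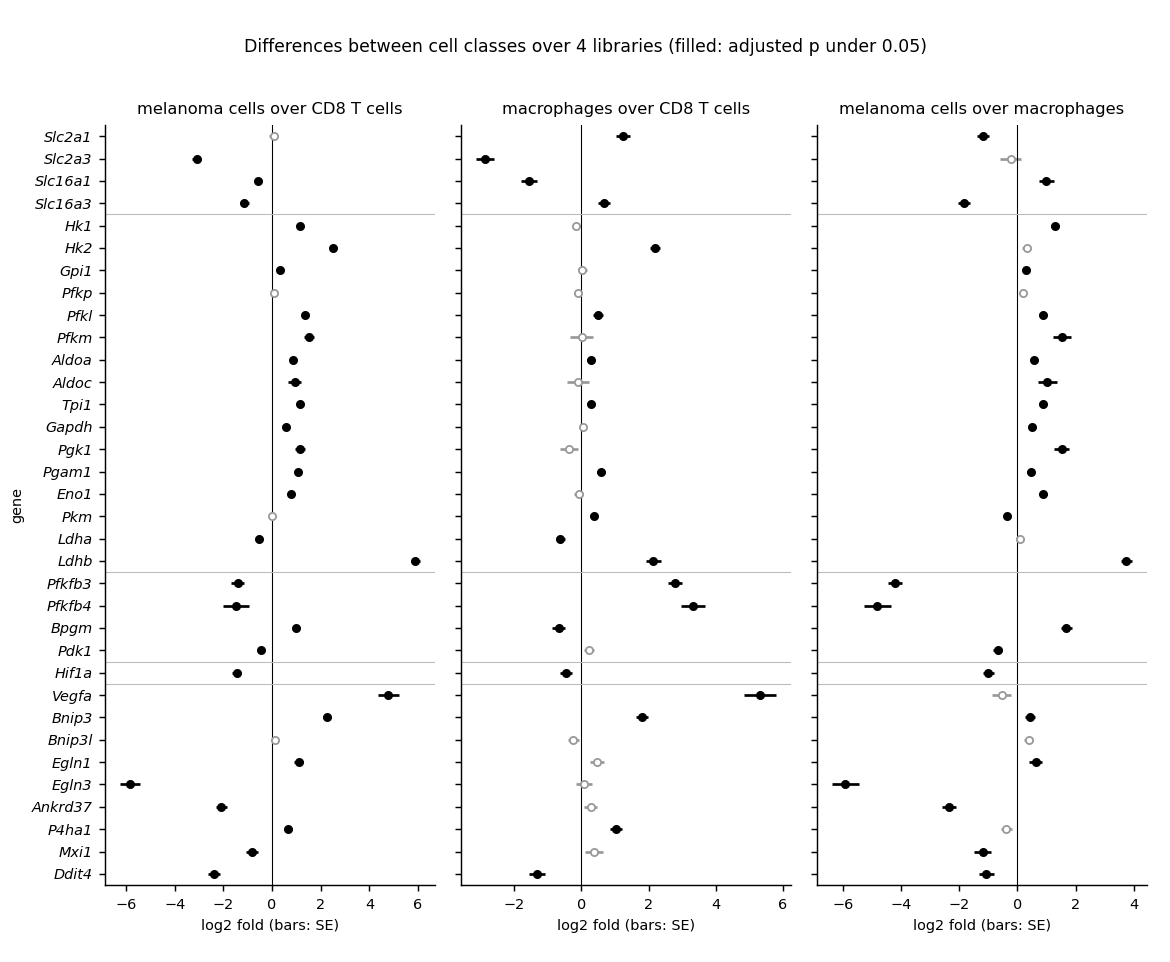
Log2 differences of the 34 genes in the 3 comparisons of cell classes, with bars of 1 SE; filled points passed an adjusted p of 0.05 in edgeR's test over 4 libraries. Most enzymes lie right of 0 in melanoma cells over CD8 T cells, and Egln3, at 0 to 3 UMIs in melanoma cells, has a fitted value that depends on the prior count.

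Genes beside the members moved as follows. Of the 18 other hypoxia-induced genes with enough counts, 13 were higher and 3 lower in melanoma cells than in CD8 T cells. The largest was carbonic anhydrase 9 (Car9), an enzyme that exports acid, with 187 CPM against 0.619 CPM (7.91 on the log2 scale). Genes of pyruvate entry and the TCA cycle were higher in 10 of 20 and lower in 4, while the pentose phosphate pathway, a side branch of glycolysis, was higher in 1 of 7 and lower in 6, among them Taldo1 (-1.33) and Tkt (-1.29). In macrophages the hexokinase of white blood cells, Hk3, had 131 CPM against 0.329 CPM in CD8 T cells, and heme oxygenase 1 (Hmox1) had 764 CPM against 4.75 CPM. TCA cycle genes were higher in 3 of 20 and lower in 8, with Idh3a at -1.37.

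These class differences depend on how the profiles are scaled. TMM factors, used above, assume that most genes do not differ; with library totals alone, an alternative added after the data were seen, the median of all genes moved to 0.40 in melanoma cells over CD8 T cells, -0.18 in macrophages over CD8 T cells and 0.60 in melanoma cells over macrophages. On that scale 22 members were higher and 7 lower in the first comparison. Slc2a1 (0.45), Pfkp (0.47), Pkm (0.39) and Bnip3l (0.53) then passed as higher, and Ldha (-0.15), Pdk1 (-0.08), Slc16a1 (-0.19), Mxi1 (-0.44) and Pfkfb4 (-1.15) no longer passed. Pkm in melanoma cells over macrophages turned from -0.36 to 0.17. Free RNA can cross between classes: melanoma markers summed to 0.0916% to 0.609% of their melanoma level in CD8 T cells and to 0.302% to 2.25% in macrophages, and CD8 markers to 4.75% to 10.3% of their CD8 level in macrophages, in each case highest in WT untreated. In macrophages with no UMI of CD8 or melanoma markers, Slc2a3 had 0 UMIs in all 4 libraries, which allows at most 4.43, 9.49, 3.70 and 15 CPM, against 6, 8, 9 and 3 UMIs in all macrophages.

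Within CD8 T cells the libraries were compared next. With 1 library a group there is no replicate and no test: a member was called when its fold of CPM was at least 1.5 and its mean level at least 20 CPM, and the interval given is an exact 95% interval that covers counting error only, under the assumption that UMIs are independent. Comparisons share libraries, so their folds are not independent of each other. Several enzymes had less RNA in the other 3 libraries than in WT untreated. Ldha had 2099, 1642, 2084 and 3144 CPM in KO anti-PD-L1, WT anti-PD-L1, KO untreated and WT untreated. Tpi1 had 701, 525, 729 and 1057 CPM in the same order, and Pgam1 442, 341, 467 and 592 CPM. WT untreated was the highest library for all 3 genes, and WT anti-PD-L1 the lowest. The 16 enzymes together summed to 8582, 7062, 7835 and 10266 CPM.

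KO over WT among untreated CD8 T cells gave 3 called members of 23 (13%), against a background of 14.7% of all 4626 genes at this level (7.83% higher and 6.9% lower), so the share called was no higher than that of all genes. Ldha was lower, at 2084 CPM against 3144 CPM (-0.59, interval -0.63 to -0.56). Mxi1, a transcription factor that opposes Myc, had 26.7 CPM against 13.8 CPM (0.95, 0.55 to 1.37), and P4ha1 27.3 CPM against 16.5 CPM (0.73, 0.35 to 1.12). Of the 11 enzymes at or over 20 CPM, 0 lay above 0 (2 with TMM factors), with a median of -0.32 against -0.10 over all genes. Hypoxia-induced members leaned the other way, with 5 of 6 above 0 and a median of 0.39. Gapdh had 1135 CPM against 1421 CPM, Pkm 1260 against 1690 CPM and Aldoa 1166 against 1317 CPM, all under 1.5-fold. Among the genes beside the members, Hilpda, a lipid-droplet protein induced by hypoxia, had 233 CPM against 73.4 CPM (1.67). It was the 1 called of 6 other hypoxia-induced genes at or over 20 CPM. As a list these did not lean upward, with 2 of 6 above 0 and a median of -0.15. Eno3, the muscle enolase, had 66.4 CPM against 208 CPM (-1.65). Cycling markers summed to 1897 CPM against 2690 CPM. In cycling clusters only, an alternative added after the data were seen, Ldha lay at -0.51 and P4ha1 at 0.54, both under the 1.5-fold line. Ldha lay at -0.52 with TMM factors, and P4ha1 at 0.37 in the first of 2 deposited listings of barcodes.

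With anti-PD-L1, KO over WT gave 1 called member of 23, at a background of 2.46% of genes (1.06% higher and 1.41% lower). Ddit4 had 121 CPM in KO, against 187 CPM in WT (-0.63, -0.74 to -0.51), and -0.49 in cycling clusters only. All 11 enzymes lay above 0, with a median of 0.24 against 0.09 over all genes, and none reached 1.5-fold: Ldha had 2099 CPM against 1642 CPM, Gapdh 1586 against 1200 CPM and Tpi1 701 against 525 CPM. Most enzymes were thus lower in KO than in WT without the antibody and all were higher with it, in folds under 1.5 apart from Ldha; the difference between these pairs was not tested.

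Anti-PD-L1 over untreated in WT gave 8 called members, 3 higher and 5 lower (34.8% of 23), at a background of 31.8% of genes (11.3% higher and 20.5% lower), again near the share of all genes. Tpi1 had 525 CPM with the antibody against 1057 CPM without (-1.01, -1.07 to -0.95), Ldha 1642 against 3144 CPM (-0.94, -0.97 to -0.90) and Pgam1 341 against 592 CPM (-0.80, -0.87 to -0.72). Pdk1 had 24.6 CPM against 46.6 CPM (-0.92, -1.20 to -0.64). Pkm, at -0.59, fell short of the line with TMM factors (-0.46) and in cycling clusters only (-0.53). On the higher side were Mxi1 with 32.7 against 13.8 CPM (1.25, 0.85 to 1.65), P4ha1 with 28.6 against 16.5 CPM (0.79) and Hif1a with 171 against 113 CPM (0.60, 0.45 to 0.74). Hif1a lay at 0.49 and P4ha1 at 0.54 in cycling clusters only, and Hif1a at 0.53 in the first listing.

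Beside the members, Hilpda had 297 CPM against 73.4 CPM (2.02) in WT with and without the antibody. Of the 6 other hypoxia-induced genes at or over 20 CPM, 2 were called higher and 0 lower. As a list they had 3 of 6 above 0 and a median of -0.07. Of 18 genes of pyruvate entry and the TCA cycle, 9 were lower. Without cycling clusters the comparison holds 16 cells of WT untreated, in which melanoma markers summed to 236 CPM; there Ldha lay at -0.39, Tpi1 at -0.35, Pgam1 at -0.50, Pkm at -0.07 and Hif1a at 0.18. Those 16 cells had 0 UMIs of Pdk1, P4ha1 and Mxi1, which allows up to 78.5 CPM, so no direction can be read for these genes there. Melanoma markers in all CD8 T cells summed to 18.2, 23.6, 31.3 and 105 CPM in the order above, and cycling markers to 1664, 1310, 1897 and 2690 CPM. Fewer cells of a kind and less RNA per cell cannot be told apart in such sums. In KO, anti-PD-L1 over untreated gave 0 called members of 23, at a background of 3.96% (2.92% higher and 1.04% lower), and 8 of 11 enzymes lay above 0.

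**Figure D3:**
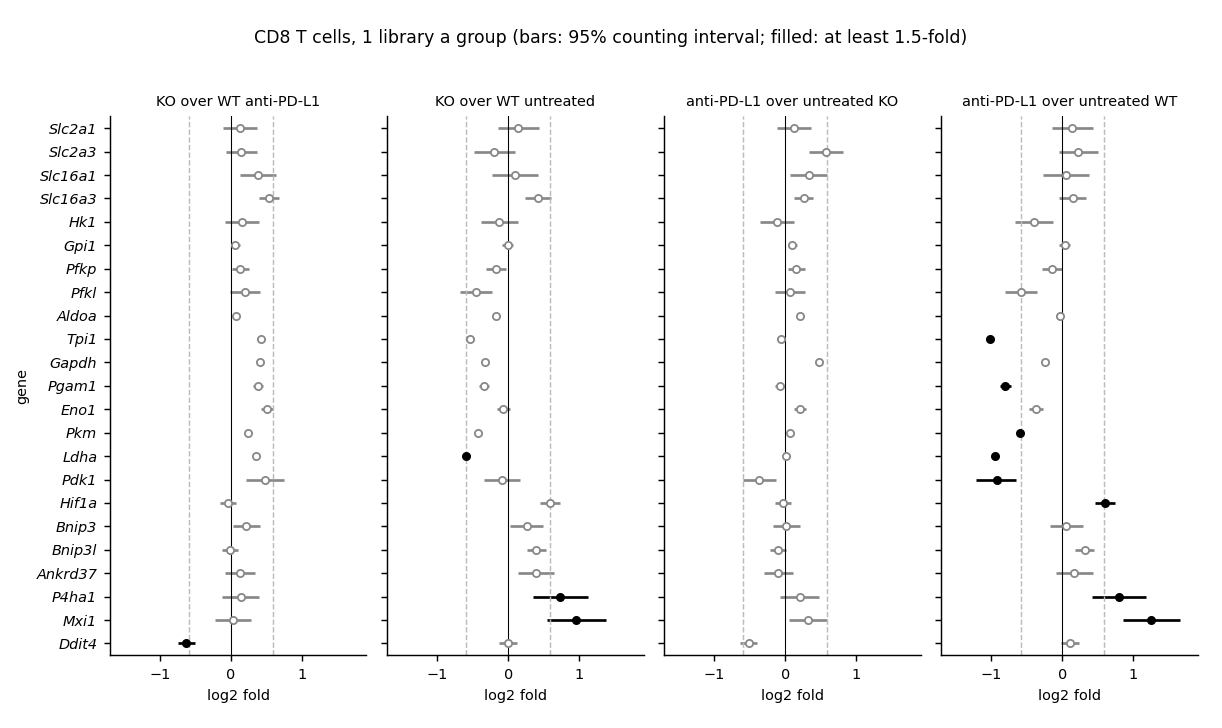
Log2 folds of the 23 genes at or over 20 CPM in CD8 T cells for the 4 comparisons, with 95% counting intervals; dashed lines mark 1.5-fold and filled points reached it. The panel of anti-PD-L1 over untreated in WT has 8 filled points and that in KO has 0.

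Macrophages of WT untreated had less Vegfa, Hif1a and Slc16a3 RNA than those of the other libraries. Vegfa had 46.1, 34.7, 32.6 and 4.39 CPM (80, 42, 69 and 3 UMIs) in KO anti-PD-L1, WT anti-PD-L1, KO untreated and WT untreated. Hif1a had 115, 151, 96.9 and 46.9 CPM, of which 26 of the 183 UMIs in WT anti-PD-L1 came from 1 cell. Slc16a3 had 171, 176, 125 and 77.7 CPM. In all 3 genes WT untreated was the lowest. That library gave 205 macrophages with a median of 3009 UMIs, against 4818 to 9110 in the others, and red cell markers summed to 14.4, 57.0, 24.1 and 192 CPM and melanoma markers to 60.0, 88.4, 97.8 and 387 CPM. The part of these in the differences was not tested.

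KO over WT untreated gave 7 called members of 26 in macrophages (26.9%), at a background of 25.3% of 4652 genes (12.6% higher and 12.8% lower), a share near that of all genes, with 6 of the 7 higher. Vegfa had 32.6 CPM against 4.39 CPM (2.89, 1.28 to 5.20), Mxi1 49.1 against 14.7 CPM (1.75, 0.81 to 2.85) and Hif1a 96.9 against 46.9 CPM (1.05, 0.50 to 1.63). Pfkfb3 (0.94), Slc2a1 (0.73) and Slc16a3 (0.68) were higher too, and Ldhb (-0.60, -1.37 to 0.21) was lower within counting error. Slc2a1 lay at 0.46 in cells with no UMI of the other classes' markers and at 0.22 in the first listing. The enzymes as a group did not lean, with 6 of 13 above 0 (9 with TMM factors) and a median of -0.02 against -0.05 over all genes. Hypoxia-induced genes lay above 0 in 7 of 8, with a median of 0.37. Hilpda, which is no member, had 342 CPM against 136 CPM (1.33).

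With anti-PD-L1, KO over WT gave 2 called members, both lower, at a background of 11.9% (6.9% higher and 5.03% lower). Ddit4 had 31.7 CPM against 58.6 CPM (-0.89, -1.42 to -0.36), and Hk2 67.5 against 104 CPM (-0.63), which became -0.12 in cells with no UMI of the other classes' markers. The enzymes lay above 0 in 12 of 13 (11 with TMM factors), with a median of 0.22. In KO, anti-PD-L1 over untreated gave 1 called member, at a background of 9.18% (5.89% higher and 3.29% lower): Ddit4, with 31.7 CPM against 77.5 CPM (-1.29, -1.76 to -0.84). Ddit4 was thus lowest in KO anti-PD-L1, and this held in all 3 classes. It did not hold in melanoma cells with no UMI of the other classes' markers. There Ddit4 had 30.8 CPM in KO anti-PD-L1 and 21.4 CPM in WT anti-PD-L1 (10 and 8 UMIs).

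In WT macrophages, anti-PD-L1 over untreated gave 9 called members, 7 higher and 2 lower (34.6% of 26), at a background of 29.7% (14.1% higher and 15.6% lower). Vegfa had 34.7 CPM against 4.39 CPM (2.98, 1.33 to 5.32), Hif1a 151 against 46.9 CPM (1.69, 1.14 to 2.28) and Slc16a3 176 against 77.7 CPM (1.18, 0.74 to 1.64). These 3 kept at least 1.5-fold in every alternative that gave them a value, though for Vegfa in cells with no UMI of the other classes' markers 8 UMIs stood against 0, and the bound is 0.75 with the 0 set to 3 UMIs. Hk2 (0.76), Mxi1 (0.76), Pfkfb3 (0.67) and Slc2a1 (0.62) were higher, and Pdk1 (-0.62) and Hk1 (-0.60) lower. Of these 6, Hk2 lay at 0.20, Mxi1 at 0.07, Pdk1 at -0.15 and Hk1 at 0.75 in those cells, Slc2a1 at 0.29 in the first listing and Pfkfb3 at 0.48 under a stricter cell filter. Genes of the TCA cycle were lower in 6 of 18, with Idh3a at -1.49, and Bhlhe40, a repressor induced by hypoxia, was higher (1.43).

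**Figure D4:**
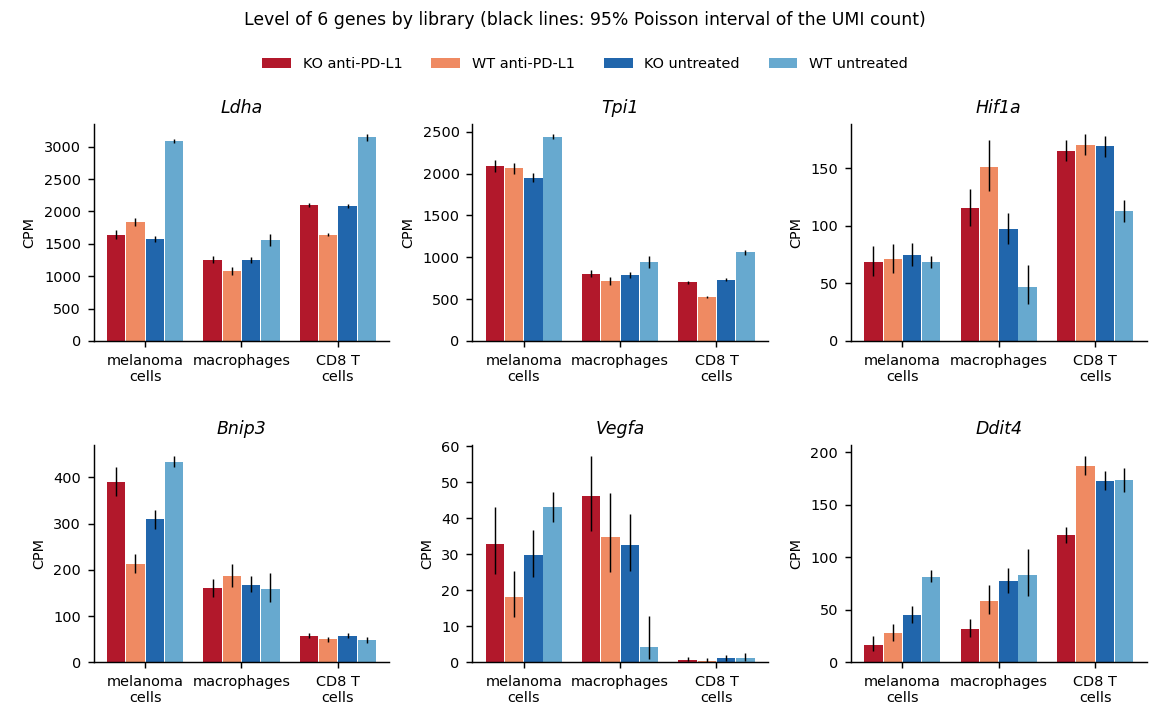
Levels in CPM of Ldha, Tpi1, Hif1a, Bnip3, Vegfa and Ddit4 in each class and library, with 95% Poisson intervals of counting error. Ldha and Tpi1 peak in WT untreated in all 3 classes, and Vegfa in macrophages has 4.39 CPM in WT untreated against 32.6 to 46.1 CPM in the other libraries.

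In melanoma cells the libraries differed in another way: WT anti-PD-L1 had the lowest levels of 7 of the 9 hypoxia-induced genes. Bnip3 had 390, 213, 309 and 434 CPM in KO anti-PD-L1, WT anti-PD-L1, KO untreated and WT untreated, and Vegfa 32.9, 18.2, 29.7 and 43.0 CPM. Bnip3l, a mitophagy receptor like Bnip3, had 251, 170, 256 and 288 CPM. WT anti-PD-L1 was the lowest library for each, and the 9 genes together summed to 851, 527, 794 and 981 CPM. Only 50 and 69 melanoma cells stand behind the KO and WT anti-PD-L1 libraries. Depth differed too, with medians of 31762.5, 25574, 13820 and 10207 UMIs a melanoma cell in the order above. The part of depth in the differences was not tested. By cluster, Bnip3 had 326, 165, 347 and 449 CPM in cluster 7, 472, 278, 326 and 435 CPM in cluster 12, and 362, 88.4, 168 and 351 CPM in cluster 14, so WT anti-PD-L1 was lowest in all 3 clusters. The libraries differed in make-up: cluster 14 held 39.1% of melanoma cells in WT anti-PD-L1 against 4.85% in WT untreated, and cluster 12 held 46.4% against 60.2%.

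Anti-PD-L1 over untreated in WT melanoma cells gave 10 called members of 27 (37.0%), all lower, at a background of 6.28% of 5507 genes (3.52% higher and 2.76% lower). Ddit4 had 27.6 CPM against 81.8 CPM (-1.56, -1.99 to -1.16), Vegfa 18.2 against 43.0 CPM (-1.24, -1.78 to -0.74) and Bnip3 213 against 434 CPM (-1.03, -1.18 to -0.88). Pdk1 had 23.5 against 42.2 CPM (-0.85), Bnip3l 170 against 288 CPM (-0.76) and Ldha 1838 against 3086 CPM (-0.75, -0.80 to -0.70). These 6 stayed past 1.5-fold in every alternative that gave them a value. By cluster, Ldha had 1080 against 2553 CPM in cluster 7, 2340 against 3310 CPM in cluster 12 and 1116 against 2983 CPM in cluster 14. Ddit4 had 19.8 against 122 CPM, 34.2 against 67.5 CPM and 16.8 against 51.5 CPM in the same order of clusters, and Vegfa 29.7 against 63.9 CPM, 17.5 against 36.3 CPM and 12.6 against 19.8 CPM. Within each cluster all 3 genes were lower in WT anti-PD-L1, though for Vegfa in cluster 14 this is 6 UMIs against 10. Aldoc, the brain-type aldolase (-0.87), Ldhb (-0.71), Slc2a1 (-0.62) and Gpi1, the isomerase of the second step (-0.59), did not: in cells with no UMI of the other classes' markers Aldoc lay at 0.18 and Slc2a1 at -0.02, and under a stricter cell filter Ldhb lay at -0.58 and Gpi1 at -0.47. All 6 hypoxia-induced genes at or over 20 CPM lay below 0, with a median of -0.89, and 1 of 15 enzymes lay above 0. Of 14 other hypoxia-induced genes, 5 were lower, with Ndrg1, a stress-induced growth suppressor, at 29.7 against 78.2 CPM and Hilpda at 49.0 against 126 CPM, and Pam was higher (1.04).

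The KO pair of melanoma profiles differed otherwise. Anti-PD-L1 over untreated in KO gave 3 called members, at a background of 7.39% (2.71% higher and 4.68% lower): Gapdh, with 3168 CPM against 1892 CPM (0.74, 0.69 to 0.80), Hk2 (0.71, and 0.18 in cells with no UMI of the other classes' markers) and Ddit4, with 17.1 against 45.3 CPM (-1.41, -2.06 to -0.80). KO over WT with anti-PD-L1 gave 8 called members, 6 higher and 2 lower (29.6% of 27), at a background of 15.5% (6.7% higher and 8.77% lower). Bnip3 had 390 against 213 CPM (0.87, 0.69 to 1.05), Vegfa 32.9 against 18.2 CPM (0.85, 0.20 to 1.51), Pdk1 40.5 against 23.5 CPM (0.79) and Egln1 70.9 against 41.2 CPM (0.78). Under a stricter cell filter Vegfa lay at 0.45 and Egln1 at 0.56. Slc16a1 had 17.7 against 33.9 CPM (-0.94, -1.63 to -0.28). Pgk1 (1.07) lay at 0.34 in the first listing, and Aldoc (0.60) and Ddit4 (-0.69) changed sign in cells with no UMI of the other classes' markers, at -0.43 and 0.52, where 13 KO and 22 WT cells were left. Hypoxia-induced genes lay above 0 in 5 of 6, with a median of 0.67, and Ndrg1 had 78.5 against 29.7 CPM (1.40). In these KO and WT melanoma cells cycling markers summed to 953 against 1972 CPM, macrophage markers to 89.8 against 22.9 CPM and red cell markers to 10.1 against 42.8 CPM, and their part in the result was not tested.

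KO over WT untreated gave 3 called members in melanoma cells, all lower (11.1% of 27), at a background of 10.7% (6.36% higher and 4.34% lower). Ldha had 1577 CPM against 3086 CPM (-0.97, -1.01 to -0.92), Ddit4 45.3 against 81.8 CPM (-0.85, -1.13 to -0.59) and Gapdh 1892 against 2846 CPM (-0.59, -0.63 to -0.55). Gapdh lay at -0.51 under a stricter cell filter, and Ddit4 at -0.44 in cells with no UMI of the other classes' markers. Of 15 enzymes 2 lay above 0 (1 with TMM factors), with a median of -0.32. By cluster, Ldha had 1242 and 2553 CPM in KO and WT untreated in cluster 7, 1964 and 3310 CPM in cluster 12 and 1263 and 2983 CPM in cluster 14, so the order held in each.

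Some members had the same highest or lowest library in all 3 classes, and how many of all genes do so was not counted. Ldha, Tpi1, Ldhb and Pdk1 were highest in WT untreated in all 3 classes, Gapdh and Pgk1 were highest in KO anti-PD-L1, and Gapdh was lowest in KO untreated. Hk1, Pkm and Pdk1 were lowest in WT anti-PD-L1 in all 3. Ankrd37 was highest in KO untreated in each class. With 1 library a group, library and condition cannot be told apart. Vegfa and Hif1a did not share an order: Vegfa was lowest in WT untreated in macrophages and highest there in melanoma cells.

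Within macrophages, cells without a UMI of Cxcl9, a chemokine induced by interferon-γ, were compared with cells that had at least 1, library by library. They numbered 46, 92, 139 and 97 in KO anti-PD-L1, WT anti-PD-L1, KO untreated and WT untreated, against 135, 84, 264 and 108 with the UMI, and shallower cells fall more often in the negative group (median UMIs 2839 to 7630 against 3280 to 9746). Cxcl9-negative macrophages had more RNA of 9 of the 26 members tested and less of none, at a background of 7.2% of 5113 genes (3.95% higher and 3.25% lower) by edgeR's quasi-likelihood test with adjustment over all genes. At an unadjusted p under 0.05 in the same fit 1 member was lower, Hif1a, and DESeq2 called 5 members higher and 0 lower. Bnip3 had 348, 269, 283 and 189 CPM against 111, 125, 116 and 136 CPM in Cxcl9-positive cells (1.23 ± 0.14, adjusted p = 3.75e-06), and the groups did not overlap. Bnip3l had 188, 163, 238 and 149 CPM against 98.4, 99.9, 118 and 84 CPM (0.90 ± 0.12, adjusted p = 4.37e-05), again without overlap. Ankrd37 had 96.6, 63.4, 66.2 and 56.4 CPM against 45.2, 29.0, 55.1 and 31.5 CPM (0.78 ± 0.20, adjusted p = 0.0165), higher in 4 of 4 libraries and also without overlap.

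Slc2a1 had 121, 84.6, 120 and 56.4 CPM in Cxcl9-negative cells against 90.4, 62.3, 57.9 and 39.4 CPM in Cxcl9-positive cells (0.67 ± 0.17, adjusted p = 0.0155). Of the enzymes, 5 of 13 were higher: Eno1 (0.59), Pgam1 (0.45), Ldha (0.40), Gpi1 (0.38) and Aldoa (0.33), each in 4 of 4 libraries. Pgam1 and Gpi1 did not overlap between the groups, and how many of all genes do not overlap was not counted. Hif1a did not pass (-0.33 ± 0.15, adjusted p = 0.242) and was lower in 4 of 4, and Vegfa missed the threshold (0.72 ± 0.23, adjusted p = 0.0603). Of the 9 hypoxia-induced members 8 were tested, and Egln3 was left out by the filter on low counts. It had 41.4, 59.6, 40.6 and 9.95 CPM against 10.2, 10.1, 6.89 and 2.62 CPM (15, 31, 27 and 3 against 14, 7, 10 and 1 UMIs). In the 2 alternatives that tested Egln3 the log2 difference was 2.27 to 2.36. Of the 9 other hypoxia-induced genes tested, 7 were higher, with Hmox1 at 1301 against 525 CPM and Hilpda at 538 against 224 CPM. Leaving out a library left 4 to 12 members called, with 4 without KO anti-PD-L1 and 4 without KO untreated, and cells thinned to 2000 UMIs gave 5. Melanoma markers summed to 58.0, 92.3, 91.8 and 564 CPM against 60.5, 85.5, 101 and 247 CPM, CD8 markers to 248, 842, 850 and 693 CPM against 364, 605, 580 and 472 CPM, and neutrophil markers to 52.4, 65.4, 61.7 and 9.95 CPM against 39.4, 126, 41.3 and 23.6 CPM, with Cxcr2 and Retnlg of that list at 0 in macrophages of all 4 libraries. Macrophage markers themselves summed to 23720 to 30370 CPM against 31110 to 36510 CPM. The part of these lists in the result was not tested.

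**Figure D5:**
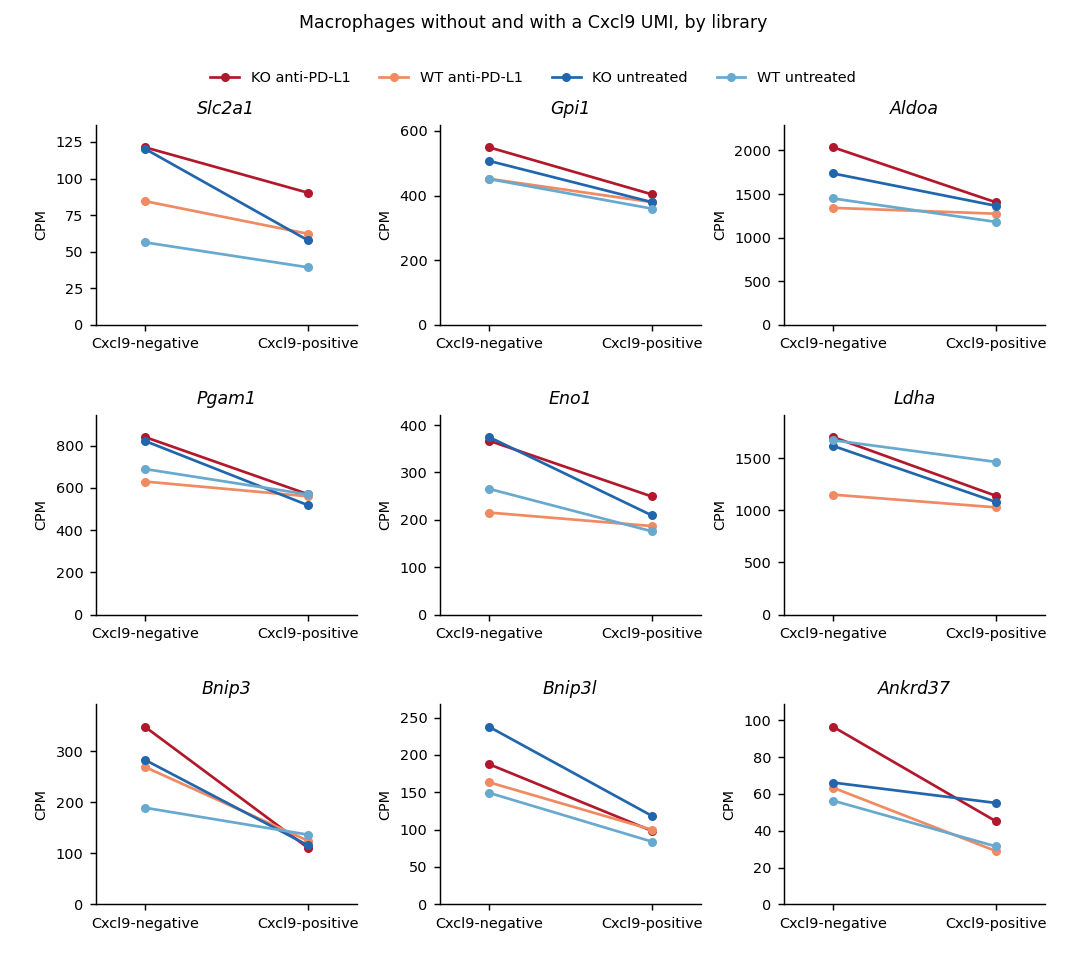
Levels in CPM of the 9 members that passed, in Cxcl9-negative (left) and Cxcl9-positive (right) macrophages, with a line for each library. All 4 lines fall to the right in each panel, and those of Bnip3, Bnip3l, Ankrd37, Gpi1 and Pgam1 do not overlap between the groups. Overlap was not counted over all genes.

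Among CD8 T cells, those with a UMI of Havcr2, the checkpoint receptor TIM-3, and none of Tcf7 were set against those with Tcf7, the factor of stem-like T cells, and no Havcr2. They numbered 309, 299, 153 and 98 against 149, 238, 393 and 325. Of 31 members tested, 8 were higher and 3 lower, at a background of 16.7% of 7628 genes (9.05% higher and 7.67% lower). Slc2a3 had 59.9, 53.3, 46.9 and 79.3 CPM in Havcr2-positive cells, against 27.2, 18.5, 15.1 and 13 CPM in Tcf7-positive cells (1.60 ± 0.19, adjusted p = 2.98e-06), without overlap. Slc2a1 (0.56), Slc16a3 (0.42), Eno1 (0.54), Aldoa (0.50), Pfkp (0.40), Pkm (0.21) and Bnip3 (0.51) were higher in 4 of 4 libraries. Ddit4 was lower, with 96.2, 146, 120 and 131 CPM against 188, 285, 209 and 184 CPM (-0.87 ± 0.10, adjusted p = 8.31e-07), also without overlap. Ldhb (-1.27) and Bpgm (-0.77) were lower with overlapping values. Ldhb had 6, 7, 3 and 4 UMIs in Havcr2-positive cells, and Bpgm passed in 5 of 12 alternatives. Ldha did not pass (0.14 ± 0.06, adjusted p = 0.14), and Hif1a did not either (-0.27 ± 0.10, adjusted p = 0.0757).

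Genes of the TCA cycle were lower in 6 of 19 and higher in 1 in Havcr2-positive cells. Of 11 other hypoxia-induced genes tested, 5 were higher, among them Hilpda (1.44), Bhlhe40 (0.94) and Ndrg1 (0.85), and 1 was lower. Cycling markers summed to 1601, 1286, 1772 and 2464 CPM, against 1904, 1470, 2181 and 2763 CPM in Tcf7-positive cells. Leaving out a library left 6 to 11 members called, with 6 without WT anti-PD-L1, and thinned cells gave 6.

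Cycling clusters of CD8 T cells were compared with the other CD8 clusters, with 352, 317, 790 and 1108 cells against 673, 1002, 761 and 16. Of 32 members tested, 10 were called, 4 higher and 6 lower. The background was 33.2% of 9118 genes (17.6% higher and 15.6% lower), so the share called was near that of all genes. Tpi1 had 778, 646, 809 and 1061 CPM in cycling cells, against 624, 452, 584 and 576 CPM in the others (0.45 ± 0.08, adjusted p = 3.99e-07), and it was higher in 4 of 4 libraries. Egln1 (0.54), Ldha (0.32) and Pgam1 (0.30) were higher, while Mxi1 (-0.44), Slc2a1 (-0.40), Slc2a3 (-0.39), Bnip3l (-0.34) and Hif1a (-0.20) were lower. Aldoc differed most, with 7.49, 6.76, 8.33 and 6.85 CPM in cycling cells against 16.7, 23.7, 23.0 and 52.4 CPM in the others (-1.52 ± 0.19, adjusted p = 5.46e-15). The 52.4 CPM of WT untreated stands on 2 UMIs in its 16 cells. Genes of pyruvate entry and the TCA cycle were higher in 9 of 20 and lower in 0. Leaving out WT anti-PD-L1 left 6 members called, and all 4 of the ways to leave out a library gave 6 to 13. DESeq2 called 3 members, which were Tpi1 and Pgam1 as higher and Aldoc as lower, and with no library term 2 passed, Tpi1 and Aldoc. Hif1a passed in 5 of 13 settings, with adjusted p up to 0.317.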

How the data were processed

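Single-cell RNA from 4 libraries, 1 for each group, was read from the tables the authors deposited, which hold unnormalised UMI counts with barcodes in rows and genes in columns. Per the labels' protocols the kit was the Chromium 3′ kit of 10x Genomics (version 2). Build mm10 is named in the submitters' processing notes beside aligners and counters for all data types (HTSeq, HISAT2, Bowtie2, Trim Galore 0.5.0, Genrich 0.5, DESeq2, bedtools), and how UMIs were counted and cells called is not stated there. Each table lists most barcodes a second time with other counts. The second listing was used, with 1346, 1680, 2312 and 2384 barcodes in KO anti-PD-L1, WT anti-PD-L1, KO untreated and WT untreated (11835413 to 16208647 UMIs), and the first was an alternative. Columns outside the 27916 shared genes held at most 0.00281% of UMIs.

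Cells had at least 500 genes, at most 10% mitochondrial UMIs and at most 1% globin UMIs; the last limit was set after the clusters were seen and removed 9 cells. No doublet caller was run. Cells were clustered with scanpy 1.11.5 (2000 variable genes without the members, the other pathway genes or receptor segments, 30 components, 15 neighbours, Leiden resolution 1.0), and a cluster took a class when its summed markers reached 0.5 of the highest cluster's. A difference from the study may come from these rebuilt classes.

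UMIs were summed per library and class. Conditions, with 1 library each, were compared by folds of CPM with exact conditional binomial 95% intervals. A call needed 1.5-fold and a mean of 20 CPM, and a count of 0 was set to 3. Cell classes were compared by edgeR 4.0.16 (quasi-likelihood, TMM, library block, R 4.3.3) with Benjamini-Hochberg adjustment over all genes tested; these p-values measure the spread between 4 libraries of different groups. Both methods were tested on simulated data. DESeq2 1.42.0 was an alternative. The members and lists were chosen with earlier results of these data known. All members could be named; called members were named by size of fold, up to 8 in each direction, uncalled ones as up to 4 of the highest level, and other lists by up to 3 called genes. Values per library and the alternatives that ended a call were added for the members the results turn on. Promoters came from RefSeq, where 32 of 34 members matched.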

Additional observations from a re-analysis of the deposited data

Results flagged for a closer look

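In 3 of 76 pairs of a member and a class, 1 of the 4 libraries stood apart from the other 3 by Dixon's criterion, which takes the gap to the nearest library over the whole range; chance flags about 1 in 20. Hif1a in CD8 T cells had 112.7 CPM in WT untreated, against 165.2 to 170.6 CPM in the other libraries. Gapdh in macrophages had 1652 CPM in KO anti-PD-L1, against 1105 to 1156 CPM. Hk1 in melanoma cells had 118.9 CPM in WT untreated, against 105.3 to 106.3 CPM.

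Anti-PD-L1 over untreated in WT went opposite ways in macrophages and melanoma cells for 2 members. On the log2 scale Slc2a1 lay at 0.62 in macrophages and -0.62 in melanoma cells. Vegfa lay at 2.98 in macrophages and -1.24 in melanoma cells. The difference between classes was not tested in either gene, since each group is 1 library.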

How the results depend on the processing

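No paired analysis was possible because each condition holds 1 library; the comparisons of cell classes and subsets were paired by library. Of 206 recomputed counts of called members, 148 stayed within 1.5 times of the reported count. Of the 55 calls between conditions, where a member can count in several comparisons, 25 stayed past 1.5-fold in every alternative in which both libraries had UMIs of the gene. The cause of the other changes was not tested, apart from those set by a threshold or by fewer cells. The 50 and 69 melanoma cells of KO and WT anti-PD-L1, and the 205 shallow macrophages of WT untreated, limit what the condition comparisons can show.

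In CD8 T cells, KO over WT untreated (3 called) gave 1 at a floor of 50 CPM, 9 with no floor, 0 at 2-fold and 15 without cycling clusters. KO over WT with anti-PD-L1 (1 called) gave 2 in the first listing, in cells with no UMI of other classes' markers, without cycling clusters and in cycling clusters only, 4 with no floor and 0 at 2-fold. Anti-PD-L1 over untreated in WT (8 called) gave 5 at 50 CPM, 14 with no floor, 2 at 2-fold, 14 without cycling clusters and 5 in cycling clusters only. In KO (0 called) it gave 1 in the first listing, as a mean over cells and without cycling clusters, and 2 with no floor. Without cycling clusters WT untreated has 16 cells, and 4 of the 15 and 4 of the 14 calls (Slc2a1, Pdk1, P4ha1 and Mxi1) rest on its 0 UMIs set to 3, or 78.5 CPM. So computed, P4ha1 lay at -1.25 and Mxi1 at -1.44 in KO over WT untreated, and at -1.33 and -1.12 in anti-PD-L1 over untreated in WT, values that give no direction.

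In macrophages, KO over WT untreated (7 called) gave 12 in cells with no UMI of other classes' markers, 4 at 50 CPM, 11 with no floor and 3 at 2-fold. KO over WT with anti-PD-L1 (2 called) gave 5 in the first listing, 8 in cells with no such UMI, 4 with no floor and 0 at 2-fold. Anti-PD-L1 over untreated in WT (9 called) gave 5 at 50 CPM, 15 with no floor and 3 at 2-fold, and in KO (1 called) 3 in the first listing and as a mean over cells, 4 in cells with no such UMI, and 2 with TMM factors and with no floor. Hk1 in WT lay at 0.75 in cells with no such UMI.

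In melanoma cells, KO over WT untreated (3 called) gave 7 as a mean over cells, 6 with TMM factors, 5 with no floor and 0 at 2-fold. KO over WT with anti-PD-L1 (8 called) gave 3 at 50 CPM and 1 at 2-fold, anti-PD-L1 over untreated in WT (10 called) 5 at 50 CPM, 16 with no floor and 3 at 2-fold, and in KO (3 called) 9 in cells with no such UMI and 1 at 2-fold. In those cells Aldoc lay at -0.43 and Ddit4 at 0.52 in KO over WT with anti-PD-L1, and Aldoc at 0.18 in anti-PD-L1 over untreated in WT.

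In the class comparisons, Pkm in melanoma cells over macrophages lay at 0.17 with library totals only, and Slc2a3 there at 6.84 in cells with no such UMI, where macrophages had 0 UMIs and the fitted value depends on the prior count. Leaving out a library gave 27 to 29 members in melanoma cells over CD8 T cells, 15 to 20 in macrophages over CD8 T cells, 23 to 29 in melanoma cells over macrophages, 6 to 13 in cycling cells, 4 to 12 in Cxcl9-negative and 6 to 11 in Havcr2-positive cells. With no library term, cycling cells gave 2, Cxcl9-negative cells 1 and Havcr2-positive cells 3; DESeq2 gave 3, 5 and 4, and thinned cells 5 and 6 for the last pair.

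TMM factors moved the median of all genes by 0.14 in CD8 T cells for anti-PD-L1 over untreated in WT, and in macrophages by 0.13 for KO over WT untreated and 0.11 for anti-PD-L1 over untreated in WT. The share of calls over all genes that were higher became 66.7% (53.2% without TMM) for KO over WT untreated, 26.1% (43.0%) for KO over WT with anti-PD-L1 and 52.6% (35.4%) for anti-PD-L1 over untreated in WT CD8 T cells. In macrophages it became 66.0% (49.6%) for KO over WT untreated and 61.5% (47.4%) for the antibody in WT, and in melanoma cells 35.4% (59.4%) for KO over WT untreated, 45.8% (56.1%) for the antibody in WT and 47.6% (36.6%) in KO.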
